A study of Mus musculus with 4 samples.

Results

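The genes examined were 10 transcripts of neutrophils, S100a8, S100a9, Retnlg, Csf3r, Cxcr2, Il1b, Il1r2, Ngp, Lcn2 and Mmp9, out of 32285 genes counted in lung sections of vaped and non-vaped mice. They were taken as a list of names, and the rows of all 10 were present in all 4 count tables. The list was chosen by their levels, their shares of spots and the clustering of their UMIs in few spots in vaped against non-vaped sections, values already known, so all 3 are given as a description and carry no test. How the genes differed between the parenchyma and the tissue outside it was not part of that choice and was tested.

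Neutrophils are short-lived white blood cells that leave the bone marrow ready made, circulate, and linger in the capillaries of the lung before they enter tissue. S100a8 and S100a9 encode the paired calcium-binding proteins that form calprotectin, the most abundant protein of the neutrophil cytosol. Proteins of the granules are made early, in the marrow, so their transcripts are scarce in mature cells, whereas surface receptors such as Cxcr2 are transcribed late. Some of the genes are also used by other cells of the lung, and Lcn2, Il1b and Mmp9 in particular do not mark neutrophils alone.

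Both groups consisted of C57BL/6J mice, and each held 1 male and 1 female, with 1 lung section from each animal. Vaped (V) mice were kept in whole-body chambers with aerosol of a Peach Ice flavored vape juice in propylene glycol and vegetable glycerin from JUUL pens, for 4 hours a day on 5 days a week over 9 weeks, starting at 6 to 8 weeks of age. Non-Vaped (NV) mice were the controls. The methods for immunoblotting call the control animals air-exposed, and the labels of these sections say only Non-Vaped. The tissue is labelled "upper pulmonary brances", and Visium slides were used, on which a spot captures the RNA of several cells. A level below is the number of unique molecular identifiers (UMIs) of a gene per 1000000 UMIs of the section or region (CPM), and fewer neutrophils cannot be told apart from less of their RNA per cell. The replicate was the mouse, with n = 2 per group, and intervals in brackets are exact 95% intervals that cover counting error only.

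The sections held 473 to 2053 spots and 6957392 to 34308556 UMIs. The V male stood apart from the other 3. Of its 1565 spots, 1 lay outside the parenchyma, against 158 of 842 in the NV male, 125 of 473 in the NV female and 433 of 2053 in the V female. A spot was placed in the parenchyma where 6 genes of alveolar epithelium and capillaries together (Sftpc, Hopx, Sftpb, Calcrl, Tmem100 and Cldn18) reached 50% of their level over all spots. All 6 of these genes, and all 5 red blood cell genes, had their highest level in the V male, as did 44.1% of all genes. The summed level of the red blood cell genes was 22538 CPM in the V male and 11747 to 13755 in the other sections. Cardiac muscle genes ran the other way, with 18.2 CPM in the V male against 3673 to 7015. The levels below are therefore given for each V mouse by itself, beside any value over the group.

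The results below turn most on S100a8, S100a9 and Retnlg, and the 250 bases before their RefSeq transcription starts (GRCm38.p6) show what letters stand there. S100a8 and S100a9 are neighbours on chromosome 3 in opposite orientation, at chr3:90668978-90670035 on the plus strand and chr3:90692632-90695721 on the minus strand, with 22596 bases between them. Retnlg, which encodes a resistin-like protein secreted by myeloid cells, lies at chr16:48872621-48874496 on the plus strand. The stretches are chr3:90668821-90669070, chr3:90695722-90695971 and chr16:48872358-48872607 on each gene's own strand. Capitals mark the letters searched for, namely TTGCNNAA of C/EBP factors, GAGGAA of PU.1 and TATAAA of the TATA box, on either strand.
S100a8: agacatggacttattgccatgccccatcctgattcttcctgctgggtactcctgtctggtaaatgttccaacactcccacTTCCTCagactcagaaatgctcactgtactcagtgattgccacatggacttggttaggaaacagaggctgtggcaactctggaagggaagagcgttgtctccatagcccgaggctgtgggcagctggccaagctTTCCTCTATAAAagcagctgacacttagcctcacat
S100a9: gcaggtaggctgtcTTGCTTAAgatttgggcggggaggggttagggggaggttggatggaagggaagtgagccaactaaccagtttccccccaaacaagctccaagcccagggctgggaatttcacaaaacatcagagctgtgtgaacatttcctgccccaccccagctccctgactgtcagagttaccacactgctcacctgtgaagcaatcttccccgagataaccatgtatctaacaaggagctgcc
Retnlg: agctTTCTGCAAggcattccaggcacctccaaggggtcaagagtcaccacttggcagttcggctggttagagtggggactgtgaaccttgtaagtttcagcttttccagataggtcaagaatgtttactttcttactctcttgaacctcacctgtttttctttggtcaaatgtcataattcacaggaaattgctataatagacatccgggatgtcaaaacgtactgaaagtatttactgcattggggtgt
S100a8 held the PU.1 letters at −170 and −36 from the start, and the latter ran directly into a TATA box at −30. S100a9 held C/EBP letters at −236 and Retnlg at −246. The TATA letters of S100a9 began at the start base itself, just beyond the stretch shown. A promoter entry, which also takes in 50 bases after the start, was found for 9 of the 10 genes, and C/EBP letters stood in 4 of the 9, PU.1 letters in 4 and TATA letters in 3. Of 32851 mouse promoters of the same length, 10.8% held the C/EBP letters, 28.3% those of PU.1 and 13.6% those of the TATA box. The other members with C/EBP letters were Ngp and Lcn2. Such matches describe letters and no binding was measured.

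The calprotectin genes were high in a single section. S100a8 stood at 53.6 CPM (NV male, 503 UMIs), 68.4 (NV female, 476), 191 (V male, 2266) and 29.4 (V female, 1010). S100a9 followed the same order at both ends, with 74.8 (NV male), 75.6 (NV female), 279 (V male) and 36.6 (V female). The V male was above both NV mice and the V female below both, so the groups overlapped, and the group means of S100a9 were 75.2 ± 0.576 in NV and 158 ± 171 in V (SD, n = 2). Within the males the V section was 3.56 times the NV section for S100a8 (3.23 to 3.93) and 3.73 times for S100a9 (3.43 to 4.05). Within the females the ratios were 0.430 (0.385 to 0.481) and 0.483 (0.436 to 0.536). The 2 transcripts kept a similar proportion in all sections, with 0.717, 0.905, 0.684 and 0.805 UMIs of S100a8 for each UMI of S100a9 in the NV male, NV female, V male and V female.

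Retnlg showed the widest gap. Its level was 4.90 CPM (NV male, 46 UMIs), 7.76 (NV female, 54), 81.3 (V male, 966) and 3.59 (V female, 123). The V male had 16.6 times the level of the NV male (12.3 to 22.8), while the V female had 0.462 times that of the NV female. As with the calprotectin genes, the 2 V mice lay on either side of both NV mice.

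**Figure D1:**
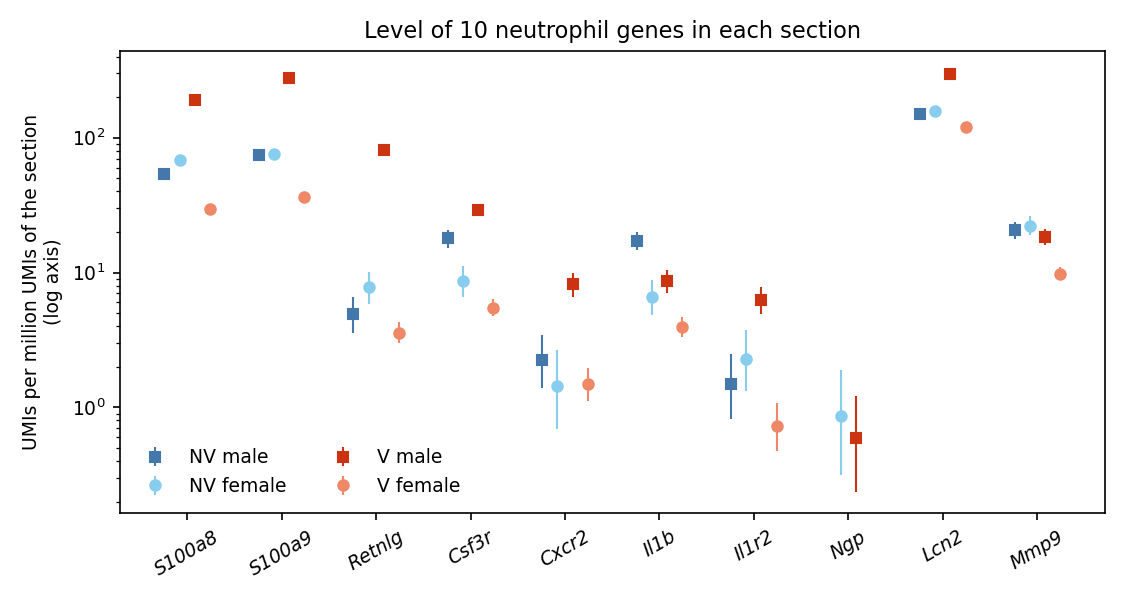
CPM of each of the 10 genes (UMIs per 1000000 UMIs of the section), on a log axis, with exact 95% Poisson intervals that cover counting error only, one point per section (squares, males; circles, females; blue, NV; red, V). The V male is the highest point for 7 genes, from Lcn2 at 299 to Il1r2 at 6.23 CPM, and Ngp has no point where its UMIs were 0.

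Receptors of mature neutrophils were counted in smaller numbers. Csf3r, the receptor of granulocyte colony-stimulating factor, had 17.9 CPM (NV male), 8.62 (NV female), 29.0 (V male) and 5.48 (V female). Cxcr2, the chemokine receptor that draws neutrophils out of the marrow, had 2.24, 1.44, 8.16 and 1.49 CPM in the same order, from 21, 10, 97 and 51 UMIs. For Il1r2, the decoy receptor of interleukin-1, the levels were 1.49, 2.30, 6.23 and 0.729 CPM from 14, 16, 74 and 25 UMIs. All 3 receptors were highest in the V male. In the males the V section had 1.62 times the NV level of Csf3r (1.35 to 1.96), 3.65 times that of Cxcr2 (2.26 to 6.16) and 4.18 times that of Il1r2 (2.34 to 8.01). The female ratio was 0.635 for Csf3r and 0.317 for Il1r2, while that of Cxcr2, at 1.03, had an interval of 0.519 to 2.28.

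Il1b, the inflammatory cytokine, did not share this order. Its level was 17.3 CPM (NV male), 6.61 (NV female), 8.67 (V male) and 3.93 (V female). The NV male was thus the highest section, and the V to NV ratio was below 1 in both sexes, at 0.502 in males and 0.595 in females. Nor was the V male the high section for Mmp9, the gelatinase B of neutrophil tertiary granules, which other cells also make. Mmp9 measured 20.7 and 22.3 CPM in the NV male and female against 18.3 and 9.82 in the V male and female. It was the one gene of the 10 whose groups did not overlap over whole sections, with V below NV. In parenchyma spots alone they did overlap, at 19.4 and 14.3 CPM in the NV male and female and 18.3 and 7.82 CPM in the V male and female.

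Lcn2, a secreted protein that binds bacterial iron carriers, was the most frequently counted member. Its levels were 151 CPM (NV male), 158 (NV female), 299 (V male) and 120 (V female). The order was that of the calprotectin genes, with narrower ratios of 1.98 in males (1.86 to 2.11) and 0.762 in females. Ngp, a granule protein of immature neutrophils, was close to absent, with 6 and 7 UMIs in the NV female and V male and 0 in both other sections. At the limit of 3 counts that a count of 0 allows, up to 0.356% of spots in the NV male and 0.146% in the V female could have held a UMI, which bounds detection and not expression.

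Summed over the 10 genes, the level was 343.7 CPM (NV male), 351.9 (NV female), 920.4 (V male) and 211.4 (V female). Over whole sections the NV mice differed by little (347.8 ± 5.78) and the V mice by much (565.9 ± 501.3, SD, n = 2). In parenchyma spots alone the sum was 410 CPM (NV male), 531 (NV female), 920 (V male) and 297 (V female). Without Lcn2, which does not mark neutrophils alone, the whole-section sum was 192.8, 193.9, 621.8 and 91.0 CPM in the same order. Of the 10 genes, 7 were highest in the V male, against 44.1% of the 16292 genes with at least 20 UMIs. A V to NV ratio above 1 in males and below 1 in females held for 6 of the 10 genes and for 32.6% of those 16292 genes. Both V sections were above both NV sections for none of the 10, against 12.8% of all genes, and below them for Mmp9, against 14.2%. Over whole sections the V male had at least 2 times the next highest section for S100a8, S100a9, Retnlg, Cxcr2 and Il1r2. So did 329 of the 16292 genes (2.02%). These counts restate what the choice of the genes used.

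In the fit over all genes (edgeR quasi-likelihood test on UMIs summed per section, Benjamini-Hochberg adjustment), 0 of 14570 genes were called between V and NV (0%), with 248 at an unadjusted p under 0.05. DESeq2 called 8. Of the members, 9 entered that fit and Ngp did not pass its filter on low counts. The fitted log2 fold change was 0.74 for S100a8 (SE 0.84), 0.96 for S100a9 (SE 0.90), 2.61 for Retnlg (SE 1.43), 0.37 for Lcn2 (SE 0.41) and −0.67 for Mmp9 (SE 0.29). Without the V male, the values of S100a8, S100a9 and Retnlg were −0.98, −0.97 and −0.74, and without the V female they were 1.50, 1.75 and 3.56. Which V mouse was kept therefore set the direction of these 3 genes.

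The higher levels of the V male were spread over many of its spots. To compare spots of unequal depth, each spot was thinned at random to 3000 UMIs and spots below that were left out, 111 (NV male), 52 (NV female), 202 (V male) and 224 (V female). A UMI of S100a8 or S100a9 was then present in 28.5% of spots (NV male, 25.2 to 31.9), 31.6% (NV female, 27.2 to 36.3), 68.2% (V male, 65.6 to 70.6) and 17.1% (V female, 15.4 to 18.9). Before thinning, the shares were 55.3%, 63.6%, 84.8% and 47.9%. The order of the V male and the V female around the NV mice was the same in both counts.

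Retnlg went from a rare to a common transcript between sections. It was seen in 1.23% of thinned spots (NV male), 3.80% (NV female), 18.6% (V male) and 0.765% (V female). Lcn2, by contrast, was present in 33.5%, 39.7%, 56.5% and 33.4% of spots, so that its shares in 3 of the sections lay close together. The receptor Csf3r was seen in 5.47%, 2.61%, 9.10% and 1.64% of spots. Il1b was most widespread in the NV male, at 5.34%, and Mmp9 was found in 4.79%, 4.51%, 5.87% and 2.35% of spots, with the V male highest by share though not by level. Cxcr2, Il1r2 and Ngp were each found in at most 2.13% of the spots of any section.

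**Figure D2:**
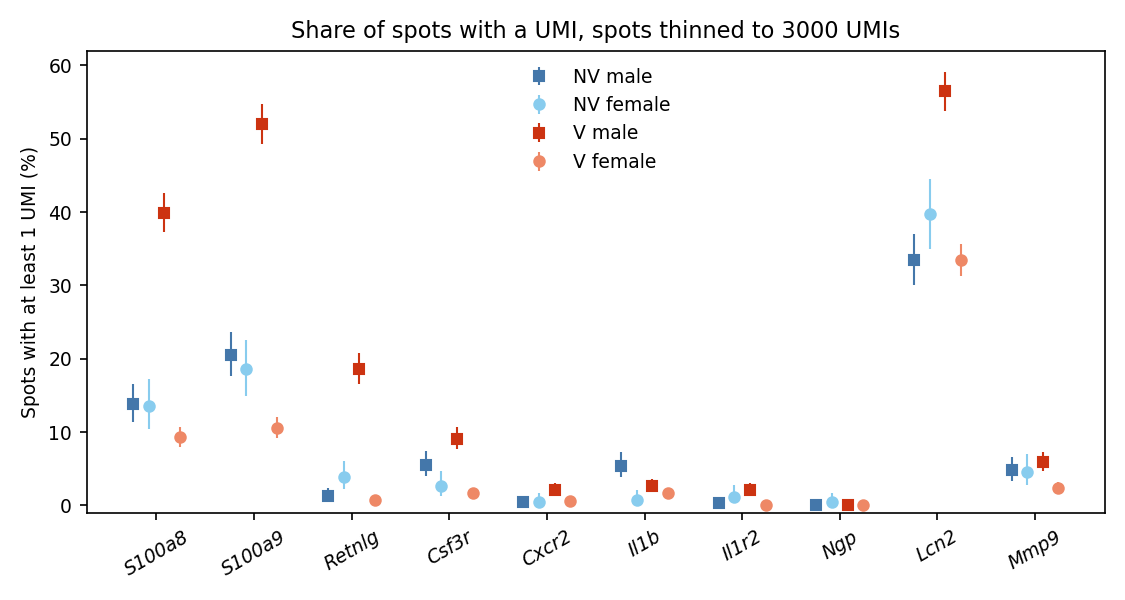
Percentage of spots with at least 1 UMI of each gene after every spot was thinned to 3000 UMIs, with exact 95% binomial intervals that cover counting error only (squares, males; circles, females; blue, NV; red, V). The V male is highest for S100a9 at 52.0%, S100a8 at 39.9% and Retnlg at 18.6%, while the V female has the lowest shares of all 3.

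Within a section the calprotectin transcripts were gathered in few spots, least so in the V male. The 1% of spots with the most UMIs of S100a8 and S100a9 held 14.02% and 21.3% of them in the male and female NV mice (9 and 5 spots) and 8.75% and 21.9% in the male and female V mice (16 and 21 spots). The same spots held 1.42% to 2.38% of all UMIs of their sections. To reach 50% of the S100a8 and S100a9 UMIs took 10.1% of spots (NV male), 8.25% (NV female), 15.4% (V male) and 8.82% (V female). The V male thus had both the highest level of these transcripts and, by these shares, the most even spread. Both shares depend on the level, because sparse counts fall in few spots by counting alone. Csf3r in the V male, with 345 UMIs and little variance beyond counting error, had 11.3% of its UMIs in its top 1% of spots.

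The largest number in a single spot came from the section with the lowest level. In the V female 1 spot with 8248 UMIs in all held 47 UMIs of S100a8, 61 of S100a9 and 15 of Retnlg, and thereby 4.77% of all S100a8 and S100a9 UMIs of that section. The top spot of the V male held 31 of S100a8, 42 of S100a9 and 10 of Retnlg among 21427 UMIs. In the NV female the top spot held 24 of S100a8 and 31 of S100a9, and also 5 of the 6 Ngp UMIs of its section. With the top spot of each section left out, the share in the 1% of spots was 12.9% (NV male), 18.8% (NV female), 7.97% (V male) and 18.4% (V female).

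Overdispersion, the variance over spots beyond counting error relative to the squared expected count, was likewise lowest in the V male. For S100a8 and S100a9 together it was 1.56 (NV male), 2.89 (NV female), 0.717 (V male) and 4.62 (V female). The median over all genes with at least 20 UMIs in the section was 0.189 to 0.236. Of the members counted that often, 4 of 8 (NV male), 6 of 7 (NV female), 1 of 9 (V male) and 4 of 9 (V female) lay above the 90th percentile of all genes. Lcn2 was spread more evenly than the calprotectin genes in every section, with 0.378, 0.611, 0.137 and 0.423.

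**Figure D3:**
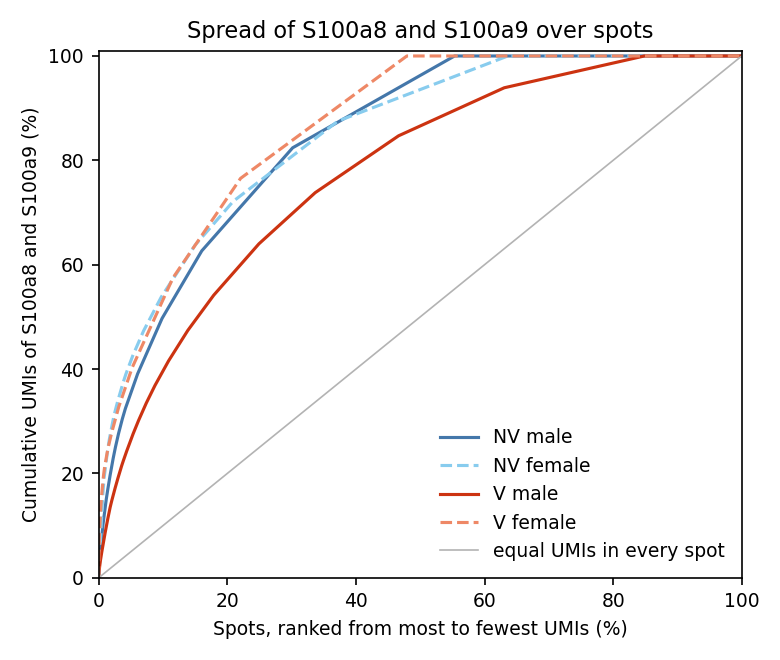
Cumulative percentage of the UMIs of S100a8 and S100a9 (vertical axis) against the percentage of spots, ranked from the most to the fewest of these UMIs (horizontal axis), one line per section, with a grey diagonal for equal UMIs in every spot. The line of the V male lies nearest the diagonal and reaches 50% at 15.4% of spots, against 8.25% to 10.1% in the other 3 sections.

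Members also differed in how far they shared spots with the calprotectin pair. Pearson correlations over spots of log(1 + UMIs per 10000) are given as a description, since spots of a section share a library and most counts are 0 or 1. Between S100a8 and S100a9, r was 0.314 (NV male), 0.386 (NV female), 0.296 (V male) and 0.341 (V female). Leaving out the 1% of spots with the most of both lowered these to 0.258, 0.296, 0.254 and 0.201. Of the 1% of spots with most S100a9, 4 of 9, 4 of 5, 6 of 16 and 14 of 21 were also among those with most S100a8.

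Retnlg came next in 3 of the 4 sections and Il1b in the NV male. For Il1b, r to the sum of the pair was 0.225, 0.112, 0.095 and 0.075 in the NV male, NV female, V male and V female. For Retnlg it was 0.127 (NV male), 0.323 (NV female), 0.264 (V male) and 0.206 (V female). Csf3r had 0.134, 0.098, 0.130 and 0.129, and stood at rank 4 of 10382 genes by the lowest of its 4 values, after S100a9 and S100a8 themselves and Foxf1. Retnlg, with 46 UMIs in the NV male, was under the minimum of 50 UMIs per section for this ranking. Lcn2, at 0.112, 0.237, 0.013 and 0.112, ranked 2158th, and Mmp9, between −0.026 and 0.086, ranked 7705th. Apart from the members, the genes highest by this measure were Foxf1 (lowest r 0.104), a transcription factor of lung mesenchyme and endothelium, Efnb2 (0.086), Cd52 (0.085) and Hsp90b1 (0.082). Correlations of this size in sparse counts set none of these genes apart.

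**Figure D4:**
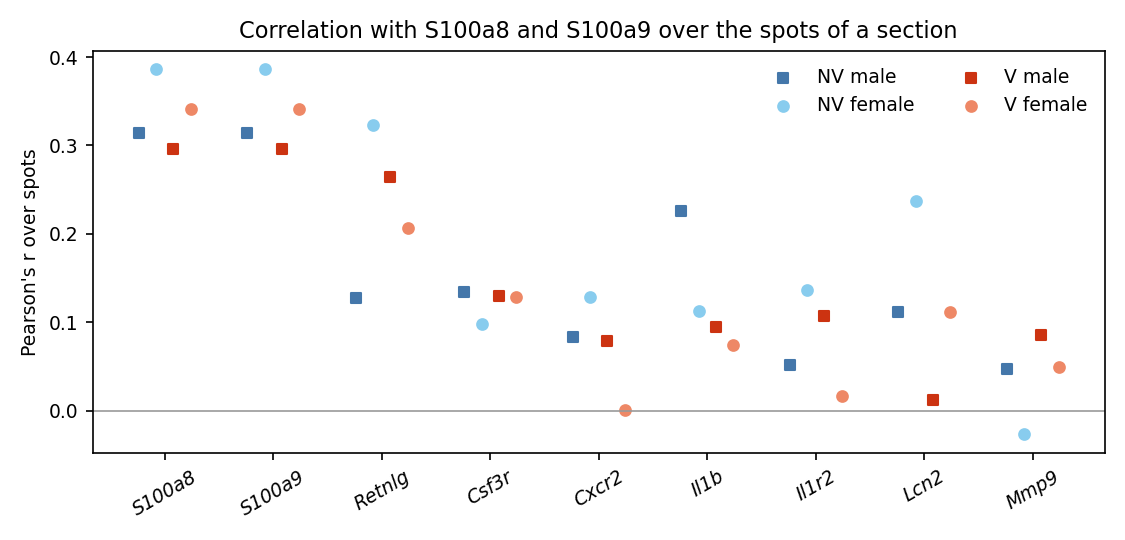
Pearson's r over the spots of each section between a gene and the calprotectin genes (for S100a8 and S100a9 the r between the 2, for the others that with their sum; squares, males; circles, females; blue, NV; red, V). Values for S100a8 and S100a9 run from 0.296 to 0.386, those of Retnlg from 0.127 to 0.323, and those of Mmp9 lie near 0.

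Position in the tissue was compared in the 3 sections with at least 50 spots on both sides, the NV male, the NV female and the V female. Outside the parenchyma lay tissue rich in transcripts of club and secretory airway cells, cardiac muscle and brown fat. S100a8, S100a9, Retnlg, Csf3r, Il1b and Lcn2 were lower outside the parenchyma, whereas Mmp9 was higher there. In the fit with the section as a block, 5612 of 13526 genes (41.5%) differed, of which 22.7% of all genes tested were higher and 18.8% lower outside. Of the 7 members tested, 6 were lower and 1 was higher. Retnlg, among the 6, passed the filter on low counts only through its levels in the parenchyma. The median log2 fold change of the 7 was −1.58, against −0.029 over all genes tested. Cxcr2, Il1r2 and Ngp did not pass the filter on low counts.

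S100a8 was counted at 65.4 CPM in the parenchyma and 14.3 outside it in the NV male, at 113 and 16.3 in the NV female, and at 42.6 and 13.8 in the V female. Every section had the same direction, and the log2 fold change was −1.70 (SE 0.20, edgeR adjusted p = 9.67e-05). For S100a9 the levels were 91.1 and 20.7, 120 and 22.9, and 53.3 and 16.6 CPM, a log2 fold change of −1.60 (SE 0.15, edgeR adjusted p = 2.52e-05). The levels outside the parenchyma lay close together in the 3 sections for both genes. Lcn2 fell from 181 to 51.5, from 242 to 59.0 and from 174 to 56.6 CPM, a log2 fold change of −1.38 (SE 0.12, edgeR adjusted p = 1.61e-05).

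Retnlg and Il1b, both scarcer, had the same direction. For Retnlg the levels were 5.96 and 1.38 CPM in the NV male, 12.5 and 2.20 in the NV female, and 5.25 and 1.60 in the V female, with 3, 7 and 25 UMIs outside the parenchyma. Its log2 fold change was −1.58 (SE 0.31, edgeR adjusted p = 0.00226). Retnlg passed the filter on low counts only through its levels in the parenchyma. With no such filter its log2 fold change was −1.63 (edgeR adjusted p = 2.58e-05). Il1b was at 21.9 and 1.84, 10.1 and 2.51, and 5.52 and 2.05 CPM, from 4, 8 and 32 UMIs outside the parenchyma, with a log2 fold change of −1.61 (SE 0.33, edgeR adjusted p = 0.00345). Csf3r was the weakest of the 6, at −0.86 (SE 0.25, edgeR adjusted p = 0.0209). It no longer passed without the NV male (−0.69, adjusted p = 0.0727) or without the NV female (−0.73, adjusted p = 0.102).

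Mmp9 went the other way, from 19.4 to 24.9 CPM in the NV male, from 14.3 to 31.7 in the NV female and from 7.82 to 12.2 in the V female. Its log2 fold change was 1.13 (SE 0.17, edgeR adjusted p = 0.000534), by a scaling other than that of CPM. Scaled to total UMIs only, as CPM are, it was 0.70 (edgeR adjusted p = 0.00728). Without the section as a block, both Mmp9 (1.12, adjusted p = 0.0837) and Csf3r (−1.19, adjusted p = 0.0880) missed the threshold. Il1r2, untested, had 1.52 and 1.38, 2.92 and 1.57, and 0.375 and 1.15 CPM from at most 18 UMIs on a side, with no common direction.

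**Figure D5:**
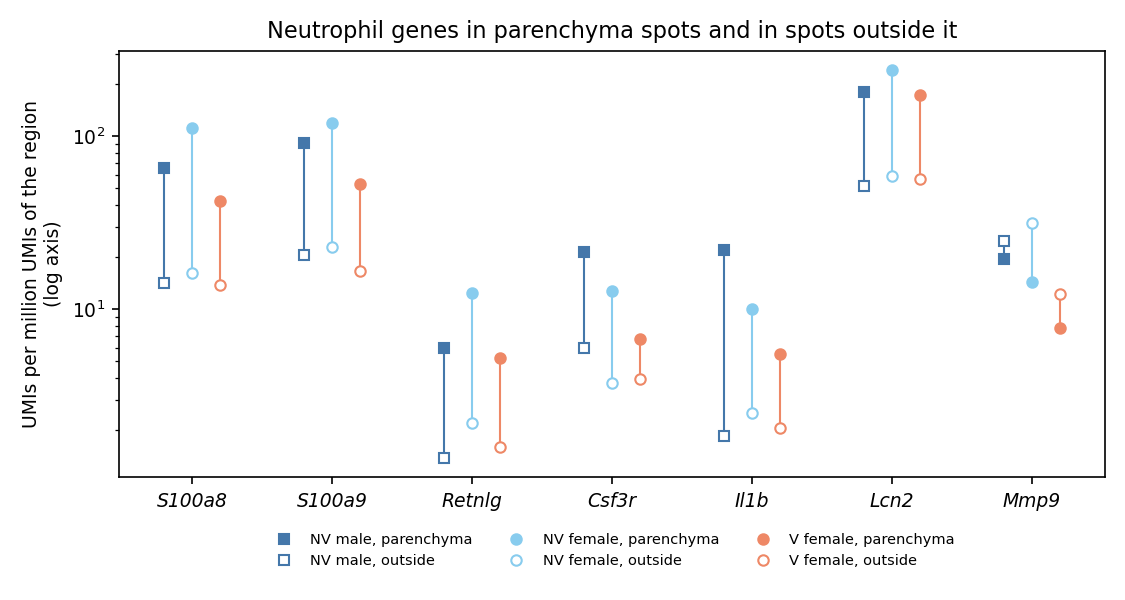
CPM in parenchyma spots (filled) and in spots outside it (open), on a log axis, for the 7 genes tested in the 3 sections that hold both regions (blue squares, NV male; blue circles, NV female; red circles, V female). Of the 7 genes, 6 drop from filled to open in every section, S100a8 from 65.4 to 14.3 in the NV male, and Mmp9 goes up in all 3.

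Because the V male had almost no tissue outside the parenchyma, levels in parenchyma spots alone were also compared. The tissue was still unequal there. Club and secretory airway genes summed to 11288, 1289, 291 and 14240 CPM in the NV male, NV female, V male and V female. Cardiac muscle genes had 2938, 2099, 18.2 and 1768 CPM. In the parenchyma spots S100a9 was 91.1 CPM (NV male), 120 (NV female), 279 (V male) and 53.3 (V female). Retnlg was 5.96, 12.5, 81.3 and 5.25 CPM in the same order. The V male remained the highest and the V female the lowest section for both genes. S100a8 (65.4, 113, 191 and 42.6 CPM) and Lcn2 (181, 242, 299 and 174 CPM) had the same sections at both ends. For S100a8, S100a9, Retnlg and Lcn2 the V male lay nearer the NV female than over whole sections. The log2 ratio of the summed level of the 10 genes, V against NV, was 0.37 in these spots and 0.70 over whole sections. Red blood cell transcripts differed between the same regions, with all 5 genes lower outside, and their summed level in the parenchyma was 12822, 18253, 22538 and 18031 CPM. For each 1000 red blood cell UMIs of a whole section there were 10.9, 11.7, 20.8 and 4.80 UMIs of S100a8 and S100a9. The 5 platelet genes ran the other way as a sum, which was lowest in the V male. Of the 79 UMIs there, 62 were of Itga2b. The 5 genes summed to 15.9, 11.4, 6.65 and 11.2 CPM over whole sections (NV male, NV female, V male and V female), from 149, 79, 79 and 384 UMIs. In the parenchyma they had 17.9, 15.1, 6.65 and 12.3 CPM. Whether blood left in the vessels had a part in the levels was not tested.

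Other genes tied to neutrophils followed the members in part. Among 21 further surface and cytosol genes of mature neutrophils, 17 were tested between regions, 8 were lower outside the parenchyma and 1 was higher, with a median log2 fold change of −0.67, where 18.8% of all genes tested were lower and 22.7% higher. The lower ones included Cxcr4, the receptor that holds neutrophils in the marrow and lung (−1.26, edgeR adjusted p = 6.84e-05) and Itgb2, a leukocyte integrin chain (−0.76). The formyl peptide receptor Fpr1 was lower as well (−1.49). Between V and NV, 0 of the 18 genes tested from this list were called. Of the 20 counted at least 20 times, 12 were highest in the V male, against 44.1% of all genes. Stfa2l1, named here after its values were seen, had 8, 6, 85 and 12 UMIs in the NV male, NV female, V male and V female. Reads of this multigene family may be split between copies. G0s2, Hdc and Slpi of the same list, also named after their values were seen, were lowest in the V male. Their levels there were 98.3, 10.3 and 53.3 CPM, against 136 to 265, 15.8 to 19.4 and 55.6 to 56.8 CPM elsewhere. Ly6g, the usual surface marker of mouse neutrophils, had 1, 0, 8 and 2 UMIs, so the defining marker was near 0 in all sections.

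Granule genes were mixed. Of 12, 6 were tested between regions, with 2 higher and 2 lower outside the parenchyma. With 41.5% of all genes called, counts of this size do not set this list or the lists that follow apart. Lyz2 (−1.43) and Chil1 (−1.73) were lower, both also transcribed in macrophages or epithelium, and Ltf (2.36) and Prtn3 (1.03) were higher. The call of Ltf was lost without the section as a block (adjusted p = 0.116), and that of Prtn3 by DESeq2 (adjusted p = 0.207) and without the NV female (0.108) or the V female (0.356). Ltf, which encodes lactoferrin and is also made by airway glands, had 24.5 and 3.16 CPM in the NV male and female and 2.02 and 48.2 CPM in the V male and female. The myeloperoxidase gene Mpo had 0 UMIs in every section and Camp had 0, 7, 2 and 1, both named as markers of immature neutrophils. Other genes of the list were counted more often, such as Pglyrp1 with 90, 59, 137 and 1136 UMIs and Prtn3 with 16, 27, 14 and 58.

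The chemoattractant and growth factor list held 12 genes, of which 6 were tested between regions, with 2 higher and 3 lower outside. Cxcl15, the lung-specific chemokine of alveolar and airway epithelium, was lower outside (−2.01), and Cxcl1, a ligand of Cxcr2, was higher (1.34), a call lost without the NV male (adjusted p = 0.0633) and without the block (0.165). Csf3, the ligand of Csf3r, had 0 UMIs in every section. Cxcl1 had 40, 10, 6 and 70 UMIs in the NV male, NV female, V male and V female. None of the 9 genes of this list counted at least 20 times was highest in the V male, against 44.1% of all genes. Of the interleukin-1 list, Il1rn, the receptor antagonist, was lower outside (−1.50), and 5 of the 7 tested did not pass. Il18 (−0.51) passed narrowly (edgeR adjusted p = 0.0459) and did not pass without any 1 of the 3 sections (0.0796 to 0.129) or by DESeq2 (0.212). Of the receptors of secreted members, Ager, which binds S100 proteins and is abundant in alveolar type I cells, was lower outside (−1.66), while the other 3 were not called.

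Relatives of the members by family were mixed as well. Of 9 other S100 genes tested between regions, S100a1 (1.60) and S100b (2.39) were higher outside the parenchyma and S100a16 (−0.59) and S100a6 (−0.36) lower. S100a6 was lost by DESeq2 (adjusted p = 0.0640) and without the NV female (0.183) or the V female (0.121), and S100b without the block (0.0925). Of 9 matrix metalloproteinases and their inhibitors, Mmp12, Mmp11 and Timp3 were lower and none was higher, with Timp3 lost without the NV female (adjusted p = 0.196). Among transcription factors of granulocytes, Cebpa was higher outside (1.02) and Cebpd lower (−0.76), neither past the threshold without the block (adjusted p = 0.0794 and 0.299). Cebpd was also highest in the V male, at 407 CPM, against 150 and 243 CPM in the NV mice and 58.2 CPM in the V female.

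Cells that share transcripts with neutrophils were checked through their own markers. The summed level of 5 classical monocyte genes was 253 CPM (NV male), 203 (NV female), 143 (V male) and 175 (V female). The sum was thus lowest in the section where S100a8 was highest. Ccr2, Csf1r, Ms4a6c and F13a1 were each lowest there, F13a1 most of all, at 4.88 CPM against 34.8 to 48.9. Ly6c2 was not, with 51.5, 25.6, 36.1 and 23.1 CPM in the same order. Summed interstitial macrophage genes were lowest in the V male too, at 135 against 368 to 632 CPM. The alveolar macrophage sum was highest there, at 673 against 297 to 527. Chil3 made up 433 CPM of that sum. Of the 7 alveolar macrophage genes 4 were highest in the V male, against 44.1% of all genes. Mrc1 was lowest there, at 45.2 CPM. In parenchyma spots alone the monocyte and interstitial macrophage sums were again lowest in the V male, but the V female led for the alveolar macrophage sum, with 742 CPM against 342 and 564 in the NV male and female and 673 in the V male. Outside the parenchyma, all 6 interstitial macrophage genes were higher, as Mmp9 was, and all 5 genes of T and NK cells were lower, as the calprotectin genes were. Of the 7 alveolar macrophage genes 5 were lower and 1, Mrc1, was higher (0.69). What part other cells had in the levels of the shared genes was not tested.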

How the data were processed

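Lung sections of 2 V and 2 NV mice were profiled on Visium slides. Per the labels and methods, the authors aligned the reads with Space Ranger to mm10 and deposited raw UMI counts of every gene in each spot over tissue. The study's Seurat steps do not touch these counts. Each table belonged to 1 section, and all 4933 spots were used. UMIs ranged from 6957392 to 34308556 per section, which sets the counting error of each level.

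The members and lists were chosen with earlier results of these data known. Levels were scaled to total UMIs, with exact Poisson intervals, and shares of spots had exact binomial intervals after thinning to 3000 UMIs. For tests, UMIs were summed per section, or per section and region, and fitted by the quasi-likelihood test of edgeR 4.0.16 (R 4.3.3), with filterByExpr and TMM scaling. A gene was called where its adjusted p was under 0.05 and its absolute log2 fold change over 0.25. Per-spot tests, as in the study, were not used, since spots of 1 section are not replicates. The smallest 2-sided p of an exact permutation test of 2 against 2 mice is 0.33, so none was run. The fits were also run on simulated counts with known changes, and the outcome is not reported here. With n = 2 per group, 0 genes called between V and NV does not mean that no gene differed. The genes named were the members, at most 4 called genes per list by the smallest p, and otherwise those stated as chosen after their values were seen or as markers. DESeq2 1.42.0, other scalings, filters, region limits and samples left out were tried as alternatives, of which the leave-one-out values of shares and of their clustering were chosen after seeing the data. Gene coordinates came from GENCODE vM21 and promoters from RefSeq, by symbol. Of the spot barcodes, 1411 of 2583 stood in more than 1 table, as spots have the same barcodes on every Visium area.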

Additional observations from a re-analysis of the deposited data

Results flagged for a closer look

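In 6 genes the V mouse was above the NV mouse of its sex in males and below it in females, by more than counting error on both sides. The genes were chosen with these levels known, so the count is a description. By direction alone the pattern held for 32.6% of the 16292 genes compared over whole sections. The share of those genes that also cleared counting error on both sides was not computed. On the log2 scale the male value minus the female value was 5.17 for Retnlg (4.05 against −1.11), 3.72 for Il1r2 (2.06 against −1.66), 3.05 for S100a8 (1.83 against −1.22) and 2.95 for S100a9 (1.90 against −1.05). It was 1.38 for Lcn2 (0.99 against −0.39) and 1.35 for Csf3r (0.70 against −0.65). These differences were not tested, since each value rests on 1 mouse against 1, and sex, mouse and section cannot be told apart.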

How the results depend on the processing

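Between V and NV, 0 genes were called in the main setting and 0 to 811 when 1 mouse was left out, with 811 without the V female (where the V male stands alone and is assumed to vary as the NV pair does) and 21 without the V male. DESeq2 called 8. Leaving out the V male turned the sign of S100a8 (−0.98), S100a9 (−0.97), Retnlg (−0.74), Csf3r (−1.21), Cxcr2 (−0.25), Il1r2 (−1.28) and Lcn2 (−0.29). Csf3r also turned without the NV female (−0.15). Over the mice left out in turn, the log2 fold change ran from −0.98 to 1.50 for S100a8, −0.97 to 1.75 for S100a9, −0.74 to 3.56 for Retnlg, −1.21 to 0.97 for Csf3r, −0.25 to 1.98 for Cxcr2, −1.28 to 1.59 for Il1r2 and −0.29 to 0.81 for Lcn2. The log2 ratio of the summed level of the 10 genes (0.70) ran from −0.72 to 1.40, and was 0.37 in parenchyma spots alone. In those spots the fitted log2 fold change was 0.39 for S100a8, 0.65 for S100a9, 2.27 for Retnlg and 0.02 for Csf3r. It was 0.89 for Cxcr2, 0.58 for Il1r2, 0.17 for Lcn2, −1.20 for Il1b and −0.39 for Mmp9. The share of spots with S100a8 or S100a9, V minus NV (12.6 percentage points), ran from −13.0 to 38.1, and the share of their UMIs in the top 1% of spots (−2.31) from −8.89 to 4.27, with 1.30 without the NV female. Thinned to 1000 UMIs, V minus NV was −0.014 percentage points for Cxcr2 and 0.096 for Ngp, each the reverse of its sign at 3000. With replicate numbers, which mark sex and not a shared animal, as a block, 0 genes were called and 413 had an unadjusted p under 0.05, and the differences of replicate 1 and 2 correlated at r = 0.34 between the groups over genes. Between regions, 5612 genes were called in the main setting, 4244 to 5898 with a section left out, 3921 without the block and 8839 when scaled to total UMIs only (1869 higher, 6970 lower, against 3072 and 2540), a scaling that moved the median of all genes to −0.45. Mmp9 stayed higher and the other 6 genes lower outside the parenchyma in every setting run, but Csf3r missed the threshold at a region limit of 25% (−0.80, adjusted p = 0.071). The depth left Ngp, Cxcr2 and Il1r2 with too few UMIs for a test between regions.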
